A study of Mus musculus with 5 samples.

Results

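The 9 serotonin receptor genes Htr1a, Htr1b, Htr1d, Htr1f, Htr2a, Htr2c, Htr4, Htr5a and Htr7 were followed across the cell classes and the feeding states of the mouse central amygdala (CeA), out of 22532 genes counted. They were listed by name as serotonin receptors, and no threshold on their values was applied. Single-nucleus RNA sequencing was done on 5 libraries, each made from the pooled CeA of a male and a female mouse. Fed replicates 1 and 2 came from C57BL/6NRj wild-type mice of 8 weeks fed ad libitum, and fasted replicates 1 and 2 came from the same kind of mice without food for 20 and 21 hours. Fed replicate 3 came from Htr2a-Cre mice of 12 weeks, also fed ad libitum, on a C57BL/6N background. These mice carry a bacterial artificial chromosome, Tg(Htr2a-Cre)KM208Gsat, in which Htr2a regulatory sequence drives Cre, and their CeA had received the Cre-dependent virus pAAV-EF1a-DIO-mCherry. The study describes 2 pairs of a fed and a fasted library, each pair made in one preparation, and a further fed library made by itself. The pairs are taken here to be replicates 1 and replicates 2, and the further library to be the Htr2a-Cre one. Neither the study nor the labels state this match. Genotype, virus and age of the Htr2a-Cre library cannot be told apart, nor, under this match, can its preparation.

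Serotonin reaches the amygdala through the axons of raphe neurons and acts there on receptors of several families. Htr2a and Htr2c couple to Gq proteins, which activate phospholipase C and release calcium from stores. Htr1a, Htr1b, Htr1d, Htr1f and Htr5a couple to Gi/o proteins, which lower cyclic AMP and open potassium channels. Htr4 and Htr7 couple to Gs proteins, which raise cyclic AMP. A neuron can hold several of these receptors, so its response to serotonin depends on their mix.

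Htr2c and Htr1f had the widest spread between classes on a linear scale of level, and Htr2a regulatory sequence drives the Cre of fed replicate 3. The regions just before the starts of these 3 receptor genes are therefore shown. Each is the stretch of 250 bases ahead of the RefSeq gene start on GRCm38.p6, at chrX:146962263-146962512 (+ strand) for Htr2c, chr16:65105785-65106034 (− strand) for Htr1f and chr14:74640624-74640873 (+ strand) for Htr2a. Capitals mark matches on either strand to the letters GGGCGG, known as the GC box, to CCAAT, or to CANNTG, known as the E-box. The letters TATAAA were searched as well.
Htr2c: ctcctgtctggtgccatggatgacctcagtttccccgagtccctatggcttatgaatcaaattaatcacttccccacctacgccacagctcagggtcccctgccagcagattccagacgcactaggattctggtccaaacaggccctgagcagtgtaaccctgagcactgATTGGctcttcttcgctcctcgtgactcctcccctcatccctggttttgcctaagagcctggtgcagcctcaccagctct
Htr1f: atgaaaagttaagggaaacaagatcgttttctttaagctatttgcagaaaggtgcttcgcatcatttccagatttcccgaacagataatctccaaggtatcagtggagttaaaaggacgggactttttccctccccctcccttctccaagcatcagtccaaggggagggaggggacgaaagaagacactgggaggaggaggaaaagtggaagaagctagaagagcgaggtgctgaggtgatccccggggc
Htr2a: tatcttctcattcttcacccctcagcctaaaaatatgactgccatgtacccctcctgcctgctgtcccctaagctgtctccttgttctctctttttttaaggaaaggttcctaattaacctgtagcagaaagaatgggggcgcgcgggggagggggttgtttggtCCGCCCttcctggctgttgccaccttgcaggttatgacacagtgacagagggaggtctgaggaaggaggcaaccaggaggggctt
The Htr2c stretch held 1 CCAAT match on the reverse strand and 5 CG pairs, and the Htr2a stretch held 1 GC box on the reverse strand and 4 CG pairs. The Htr1f stretch held 7 CG pairs and no match to any of the 4 motifs. Of 32851 RefSeq promoters of the same length, 12.4% held TATAAA, 32.7% the GC box, 33.8% CCAAT and 66.2% the E-box, and the median was 6 CG pairs. Htr7 stood out among the receptors by base composition, with 41 CG pairs and a GC share of 82%, against 52.4% in the median promoter. A match is a string of letters only and marks no bound site.

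After filters on genes and mitochondrial UMIs (unique molecular identifiers, 1 per captured RNA molecule), 7161 nuclei remained, 1130 to 1734 per library. The files held 17321997 to 53146326 UMIs per library, and the kept nuclei had a median of 6608 to 16367 UMIs. Of these nuclei, 5589 were inhibitory by Gad1 and Gad2, the enzymes that make GABA, 705 were glial and 46 were excitatory. No annotation of nuclei was used, so classes were rebuilt by gates on UMIs of marker genes, taken mostly from the study's text and plots, none of them a serotonin receptor. Exactly 1 gate was passed by 2704 inhibitory nuclei, none by 1695 and several by 1190. The classes were Prkcd (346 nuclei), Calcrl (150), Dnah5 (157, the gate for the Nts/Tac2 neurons of the CeL, the lateral CeA), Sst (224), Tafa1 (276), Tac1 (121), Rai14 (85), Vdr (60) and Dlk1 (139). Following the study's clusters, Calcrl is taken to mark the capsular CeA, Prkcd, Dnah5 and Sst the CeL, and the other 5 the medial CeA (CeM). Of 36 further markers of these 9 classes, 34 were higher in their own class than in the other inhibitory nuclei. The exception was Drd2 in both Calcrl (log2 change 0.26, edgeR adjusted p = 0.356) and Rai14 (0.39, adjusted p = 0.239). Drd2 is part of the name of the study's CeM Drd2/Rai14 cluster, so the match of the Rai14 class to that cluster lacks this marker. The classes Pde1c (153), Rarb (642), Foxp2 (235) and Nkx2-1/Lhx6 (116) had no further markers and are called by their gate genes. The study reads Pde1c, Rarb and Foxp2 as neighbours of the CeA and Nkx2-1 as marking interneurons of the basolateral amygdala. Gad1 averaged 110 to 281 CPM (UMIs of a gene scaled to a common total) in the classes, while Slc17a7 of excitatory neurons stayed at or under 0.63 CPM.

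Levels below are CPM, the UMIs of a gene summed over the nuclei of a class in a library, scaled by all UMIs of that sum. They are listed for fed replicates 1, 2 and 3 and then fasted replicates 1 and 2, followed by the mean ± SD (n = 5 libraries). For shares of nuclei with a UMI, every nucleus was first cut down at random to 4000 UMIs (thinned nuclei), unless full depth is stated. The shares have exact 95% binomial intervals that cover counting error only. A level can be lower through fewer nuclei with the transcript or through fewer UMIs in each, so both measures are given for the main receptors.

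Htr2c and Htr1f were the receptors found in most inhibitory nuclei. Htr2c (chrX:145745509-145980286, + strand, GRCm39) was at 279, 427, 371, 295 and 379 CPM, or 350.2 ± 61.8, with a UMI in 47.0% of thinned inhibitory nuclei. Htr1f (chr16:64742111-64926217, − strand) was at 247, 334, 261, 239 and 342 CPM, or 285 ± 49.3, with a UMI in 40.7%. In both genes replicate 2 gave the highest fed and the highest fasted value. Both had glial levels well above 0, at 101 CPM for Htr2c and 72.2 CPM for Htr1f in the summed glial nuclei.

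Htr4 (chr18:62456716-62629648, + strand) had a UMI in 22.3% of thinned inhibitory nuclei, and Htr7 (chr19:35935818-36035177, − strand) in 11.7%. Htr1d (chr4:136150835-136172370, + strand) was found in 4.84%, Htr2a (chr14:74877344-74946934, + strand) in 4.29% and Htr1b (chr9:81510344-81515902, − strand) in 4.22%. Htr5a (chr5:28047147-28063529, + strand) reached 1.21% and Htr1a (chr13:105580147-105584630, + strand) 0.523%. The study's methods state that intronic reads were counted, in which case a long gene can collect more UMIs than a short one, so levels of different genes are compared by gene span only. Per kilobase of gene span, the inhibitory level was 2.07 CPM for Htr1b, 1.55 for Htr1f, 1.49 for Htr2c, 0.640 for Htr1d, 0.499 for Htr4, 0.417 for Htr7, 0.346 for Htr1a, 0.203 for Htr5a and 0.177 for Htr2a. By this measure Htr1b, a short gene, stood in front, and Htr2a was last.

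**Figure D1:**
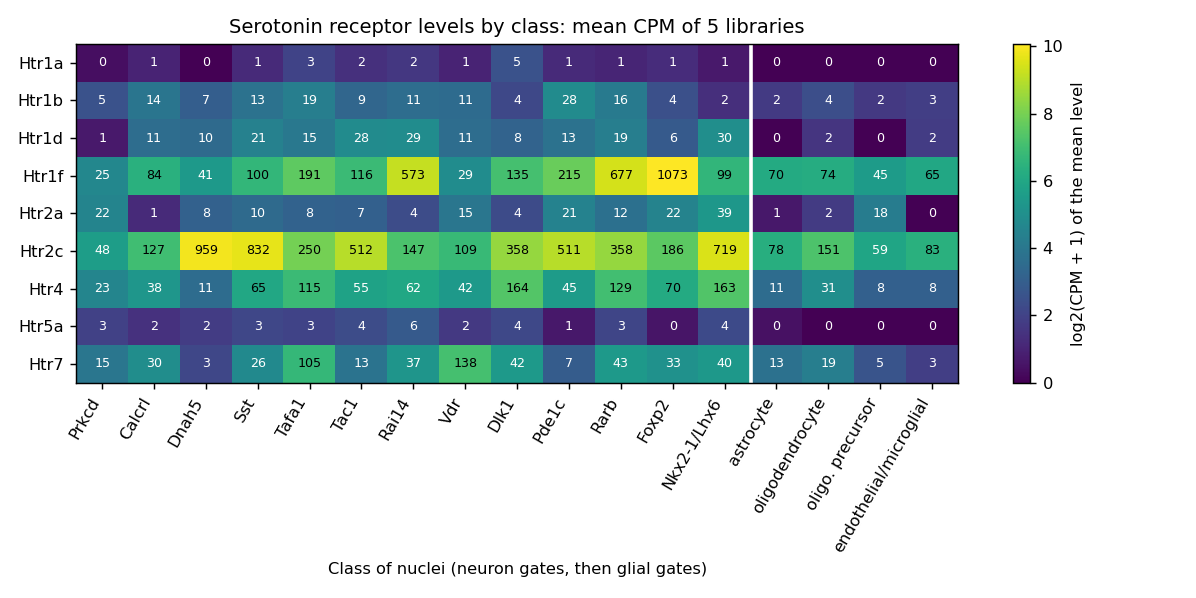
Mean level of the 9 receptors (rows) in the 13 neuron classes and 4 glial classes (columns, separated by the white line), as CPM over 5 libraries; colour is on a log2(CPM + 1) scale and the printed numbers are CPM. Htr2c peaks in Dnah5 (959 CPM) and Sst (832), and Htr1f in Foxp2 (1073), Rarb (677) and Rai14 (573).

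To ask which receptors mark which neurons, each class was compared with the inhibitory nuclei of the same libraries that did not pass its gate. Of 117 pairs of a receptor and a class, 111 could be tested, and 58 passed an adjusted p of 0.05 in edgeR's quasi-likelihood test, 24 higher and 34 lower. Over all genes tested in the 13 classes, 6.7% passed as higher and 9.07% as lower, against 21.6% and 30.6% for the receptors. Of the 58 calls, 37 passed under each of the 12 other settings, and no call changed direction. The p-values measure the spread between these libraries, which are pools of mice.

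Among the Gq-coupled receptors, Htr2c was high in the CeL classes Dnah5 and Sst, whose ranges overlapped, and low in the CeL class Prkcd. In Dnah5 it was at 629.7, 1219, 749, 909 and 1287 CPM (959 ± 287), with a UMI in 81.8% of nuclei (74.8 to 87.6%). In Sst it was at 796, 1186, 836, 644 and 697 CPM (832 ± 212), with a UMI in 82.9% (77.2 to 87.6%). The lowest library of either class was at 629.7 CPM, above every library of Prkcd, Calcrl, Vdr, Rai14, Tafa1 and Foxp2. Htr2c was higher than in the other inhibitory nuclei by 1.5002 ± 0.10 (SE) in Dnah5 (adjusted p = 1.95e-22) and by 1.32 ± 0.09 in Sst (adjusted p = 1.03e-14) on the log2 scale.

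In Prkcd, the remaining CeL class, Htr2c was at 16.7, 22.5, 52.6, 56.8 and 88.9 CPM (47.5 ± 29.2), with a UMI in 11.6% of nuclei (8.44 to 15.5%). No library came near those of Dnah5 or Sst, and the change was −3.03 ± 0.17 (adjusted p = 1.67e-15). This share was below that of oligodendrocytes, 37.0% (23.2 to 52.5%), and of astrocytes, 26.7% (20.5 to 33.7%). Those glial shares come from the 46 oligodendrocytes and 187 astrocytes deep enough to thin. Whether the Htr2c UMIs in Prkcd are background was not tested. The glial nuclei were shallower, with a median of 1525 to 4041 UMIs in oligodendrocytes against 6972 to 18107 in inhibitory nuclei. In Calcrl, Htr2c was at 133, 168, 217, 50.2 and 67.2 CPM, a change of −1.60 (adjusted p = 4.55e-11).

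In the CeM classes Htr2c took middle and low values. Vdr had 91.5, 228, 57.0, 33.7 and 135 CPM (−1.89, adjusted p = 3.87e-19) from only 60 nuclei. Tac1 had 319, 645, 647, 351 and 598 CPM and passed as higher (0.48, adjusted p = 7.8e-05). Tafa1 had 178, 365, 255, 126 and 325 CPM and passed as lower (−0.53, adjusted p = 9.75e-05). Neither call held without the library as a block, at adjusted p = 0.0827 for Tac1 and 0.154 for Tafa1, and Tac1 also lost its call with a stricter gate (0.369) and with thinned nuclei (0.396). Rai14 ranged from 13.9 to 337 CPM between libraries, with a change of −1.29 (adjusted p = 2.94e-13) that DESeq2 (0.0602) and the fit without the block (0.0513) did not call, and a stricter gate gave −2.12. Dlk1 did not pass (−0.12, adjusted p = 0.733).

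Outside the CeA, Nkx2-1/Lhx6 nuclei had Htr2c at 577, 861, 534, 895 and 726 CPM (1.03 ± 0.13, adjusted p = 7.77e-08), all above the level of each library's inhibitory nuclei as a whole. Pde1c nuclei had 426, 512, 614, 340.3 and 665 CPM (0.67, adjusted p = 6.13e-07). Foxp2 nuclei had 107, 38.9, 199.7, 357 and 228 CPM (−1.18, adjusted p = 4.69e-07), which DESeq2 did not call (0.195). Rarb did not pass (0.03, adjusted p = 0.786). In the order of means, each class overlapped its neighbours in the range over libraries.

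Htr2a, the receptor after which the Cre line is named, was low throughout. It was at 8.88, 11.6, 18.9, 9.30 and 13.01 CPM in all inhibitory nuclei (12.3 ± 4.05), with the highest value in the Htr2a-Cre library. It was highest in Nkx2-1/Lhx6 nuclei, at 56.4, 31.2, 54.2, 15.6 and 36.6 CPM (1.73 ± 0.25, adjusted p = 2.33e-06), with a UMI in 16.1% (9.81 to 24.2%). With a stricter gate this change was 0.89 (adjusted p = 0.0804). In Prkcd it was at 9.13, 21.4, 21.1, 34.4 and 25.5 CPM (0.82 ± 0.22, adjusted p = 0.00419), with a UMI in 6.69% of nuclei. Htr2a was the only receptor of 8 tested that passed as higher in Prkcd.

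Htr2a also passed as higher in Pde1c, at 6.36, 5.48, 49.9, 15.3 and 27.1 CPM (1.01, adjusted p = 0.0144). The value of fed replicate 3 stood above the others, and the call was lost without it (0.64, adjusted p = 0.403), without fasted replicate 2 (0.89, adjusted p = 0.111), with DESeq2 (0.206) and without the block (0.072). In Calcrl only 3 Htr2a UMIs were found in 150 nuclei, giving 0, 0, 4.71, 0 and 1.87 CPM (adjusted p = 7.8e-05 for the lower level, 0.000258 without fed replicate 3, where 2 of the 3 UMIs were). In Rai14 there were 5 UMIs, each of them in fed replicate 3. The lower call there (adjusted p = 0.0438) was lost in 8 settings, at adjusted p between 0.0518 and 0.347, among them without fed replicate 1 (0.0834), fed replicate 2 (0.145), fasted replicate 1 (0.083) and fasted replicate 2 (0.347). Foxp2 nuclei had a mean of 21.7 ± 6.71 CPM and did not pass (adjusted p = 0.0689). Astrocytes had a mean of 0.566 CPM.

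Of the Gi/o-coupled receptors, Htr1f set neurons outside the CeA and 1 CeM class apart. It was highest in Foxp2 nuclei, at 1082, 1244, 728, 912 and 1399.8 CPM (1073 ± 265), with a UMI in 83.0% (77.5 to 87.7%). Rarb nuclei had 681, 817, 580.0, 575 and 731 CPM (677 ± 103), with a UMI in 74.9% (71.3 to 78.3%). Rai14 nuclei, taken as a CeM class, had 616, 582, 530.2, 404 and 734 CPM (573 ± 121), with a UMI in 71.4% (60.5 to 80.8%). These 3 classes were the only ones called higher, by 2.20 ± 0.09 (adjusted p = 3.27e-26), 1.89 ± 0.06 (adjusted p = 2.72e-15) and 1.03 ± 0.11 (adjusted p = 4.4e-15). Every library of Rai14 was above every library of Pde1c, the next class in the order.

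The other 10 classes all passed as lower in Htr1f. In Prkcd it was at 3.04, 16.9, 35.1, 41.3 and 26.3 CPM (24.5 ± 15.1), a change of −3.71 ± 0.17 (adjusted p = 3.17e-17). In Dnah5 it was at 55.2, 36.3, 29.1, 29.5 and 55.2 CPM (41.04 ± 13.2), a change of −2.91 (adjusted p = 6.47e-28). The shares with a UMI were 8.43% in Prkcd and 13.6% in Dnah5, against 23.9% (12.6 to 38.8%) in oligodendrocytes and 14.4% in astrocytes. Whether the Htr1f UMIs in Prkcd and Dnah5 are background was not tested. Sst had a mean of 100 CPM, with a change of −1.58 (adjusted p = 7.41e-12), and Vdr changed by −3.65 (adjusted p = 9.62e-39; −4.63 with a stricter gate). Pde1c was the weakest (−0.36, adjusted p = 0.0165), and its call was lost with DESeq2 (0.133), without the block (0.235) and without fed replicate 2 (0.0568), fed replicate 3 (0.176) or fasted replicate 2 (0.0769). Of the astrocyte UMIs in fed replicate 3, 49 of 67 were in 1 nucleus. The 46 excitatory nuclei had Htr1f at 474, 709, 490.3, 507 and 642 CPM, with a UMI in 82.6% (68.6 to 92.2%), so high Htr1f was not confined to inhibitory neurons.

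Htr1b, a terminal autoreceptor in serotonin axons and a heteroreceptor elsewhere, was highest in Pde1c nuclei. It was at 31.8, 32.9, 32.5, 15.3 and 28.5 CPM there (28.2 ± 7.42), with a UMI in 12.1%, a change of 1.48 ± 0.28 (adjusted p = 3.86e-05). In Tafa1, the largest CeM class, it was at 14.0, 35.6, 11.2, 9.68 and 24.4 CPM (0.82, adjusted p = 0.00827). Both replicates 2 were the high libraries in Tafa1, and the call was lost without fed replicate 2 (0.43, adjusted p = 0.212), with DESeq2 (0.111) and with thinned nuclei (0.292). Rarb had 16.3 ± 5.42 CPM (0.70, adjusted p = 0.00416), lost without fasted replicate 2 (0.54, adjusted p = 0.0682) and with thinned nuclei (0.19).

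Htr1b passed as lower in Prkcd (4.88 ± 2.32 CPM, −1.29, adjusted p = 0.000704). In Foxp2 it was at 4.43 ± 3.24 CPM (−1.33, adjusted p = 0.00721), a call lost without fed replicate 2 (−1.10, adjusted p = 0.0726), with DESeq2 (0.0633) and with thinned nuclei (0.546). In Nkx2-1/Lhx6 nuclei 2 UMIs were found, both in fed replicate 3. This call (adjusted p = 0.000237) was lost with thinned nuclei (0.151), and it held without fed replicate 3 (3.02e-06) and without fasted replicate 2 (0.0242). The glial level of Htr1b was 3.66 CPM, so the low classes lay near it.

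Htr1d, a close relative of Htr1b, was nearly absent from Prkcd nuclei. There it was at 0, 2.25, 0.702, 0 and 0 CPM, from 3 UMIs in 346 nuclei (adjusted p = 2.49e-09 for the lower level). Without fed replicate 2, where 2 of these UMIs were, the adjusted p was 1.82e-09. The other classes had means of 6.26 CPM or more. Htr1d passed as higher in Tac1 at 29.4, 16.3, 37.1, 23.4 and 32.3 CPM (1.13, adjusted p = 0.00162), in Rai14 at 29.6, 10.99, 48.2, 27.9 and 26.9 CPM (1.11, adjusted p = 0.00963), and in Nkx2-1/Lhx6 nuclei at 43.9, 10.4, 58.0, 15.6 and 23.0 CPM (1.12, adjusted p = 0.00332). It also did so in Rarb, at 18.9 ± 4.81 CPM (0.70, adjusted p = 0.00111). None of these 4 higher calls held without the block, at adjusted p of 0.0762, 0.103, 0.0793 and 0.0587 in this order, or with thinned nuclei, at 0.781, 0.752, 0.0532 and 0.289. Without fasted replicate 2 the values were 0.105 in Tac1, 0.105 in Rai14 and 0.0512 in Nkx2-1/Lhx6, and without fed replicate 3 the value in Rai14 was 0.16.

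Htr5a and Htr1a were close to the limit of detection. Htr5a was at 3.62, 3.89, 3.21, 3.03 and 2.89 CPM in inhibitory nuclei, from 257 UMIs, and Htr1a at 1.99, 1.98, 1.396, 1.01 and 1.39 CPM, from 120 UMIs. Htr5a was tested in all 13 classes and Htr1a in 7, and neither passed in any of them. Class means ran from 0.488 to 6.21 CPM for Htr5a and from 0 to 4.80 CPM for Htr1a, the highest in Dlk1. Differences of this size were not detectable at this depth. In the glia, 1 UMI of Htr5a and 0 of Htr1a were found, and the latter allows up to 1.23 CPM (exact 95% Poisson limit).

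The Gs-coupled receptor Htr4 was highest in Dlk1 nuclei of the CeM. It was at 155, 232, 145, 136 and 151 CPM there (164 ± 38.7), with a UMI in 41.9%, a change of 0.96 ± 0.12 (adjusted p = 1.17e-10). Nkx2-1/Lhx6 nuclei had 257, 182, 50.3, 148 and 176 CPM (0.89 ± 0.17, adjusted p = 0.000145), with the Htr2a-Cre library lowest. Rarb nuclei had 112, 142, 151, 122 and 117 CPM (129 ± 17.1, 0.86, adjusted p = 1.85e-07). Tafa1 nuclei had a mean of 115 ± 19.7 CPM (0.43, adjusted p = 0.00134), which did not pass with thinned nuclei (0.25). The ranges of these 4 classes overlapped each other, and the lowest Tafa1 library was above the highest Foxp2 library, the next class.

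Over the 13 classes the correlation of Htr4 with Htr2c was 0.170 (log2 means of the fed libraries). Htr4 was lowest in Dnah5, the class highest in Htr2c. In Dnah5 it was at 4.596, 19.5, 1.62, 20.6 and 7.12 CPM (10.7 ± 8.79), with a UMI in 2.60% of nuclei, a change of −3.23 ± 0.25 (adjusted p = 2.99e-18; −3.86 with a stricter gate). This mean was under the 14.3 CPM of the summed glia. Prkcd nuclei had 9.13, 30.4, 33.0, 13.8 and 30.2 CPM (−1.92, adjusted p = 6.59e-12). Calcrl, Vdr and Pde1c passed as lower by 1.17, 1.17 and 0.96. Tac1 (−0.70, adjusted p = 0.000851) lost its call without the block (0.0501), with a stricter gate (0.42), with thinned nuclei (0.172) and without fed replicate 3 (0.0504). Sst (−0.39, adjusted p = 0.0245) lost it with DESeq2 (0.0976), without the block (0.156), with thinned nuclei (0.525) and without fed replicate 2 (0.0763) or fed replicate 3 (0.0814).

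Htr7, the other Gs-coupled receptor, passed as higher in 2 CeM classes only. In Vdr it was at 178, 186, 95.1, 84.3 and 144 CPM (138 ± 46.6), with a UMI in 39.7% (27.0 to 53.4%). In Tafa1 it was at 146, 119, 98.9, 70.2 and 89.0 CPM (105 ± 29.2), with a UMI in 27.3% (22.1 to 32.9%). The changes were 1.69 ± 0.22 (adjusted p = 1.19e-12) and 1.53 ± 0.11 (adjusted p = 1.03e-11). Every Tafa1 library was above every Rarb library, the next class.

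Like Htr4, Htr7 was almost missing from Dnah5 nuclei, at 4.596, 5.58, 4.85, 0 and 1.78 CPM (−3.69 ± 0.36, adjusted p = 2.69e-14; −4.52 with a stricter gate and −4.66 with thinned nuclei), under the 10.97 CPM of the summed glia. Pde1c nuclei had 0, 2.74, 10.8, 3.82 and 15.7 CPM (−2.14, adjusted p = 1.51e-07; −2.82 without fasted replicate 2, the highest library). Tac1 (13.2 ± 7.46 CPM, −1.84, adjusted p = 4.31e-08) and Prkcd (14.7 ± 4.15 CPM, −1.67, adjusted p = 3.05e-10) lay near the glial level too. With thinned nuclei Tac1 was not called (0.176). Sst (−0.56, adjusted p = 0.0219) lost its call with DESeq2 (0.0916), without the block (0.101), with a stricter gate (0.109), with thinned nuclei (0.569) and without fed replicate 2 (0.165) or fed replicate 3 (0.055).

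**Figure D2:**
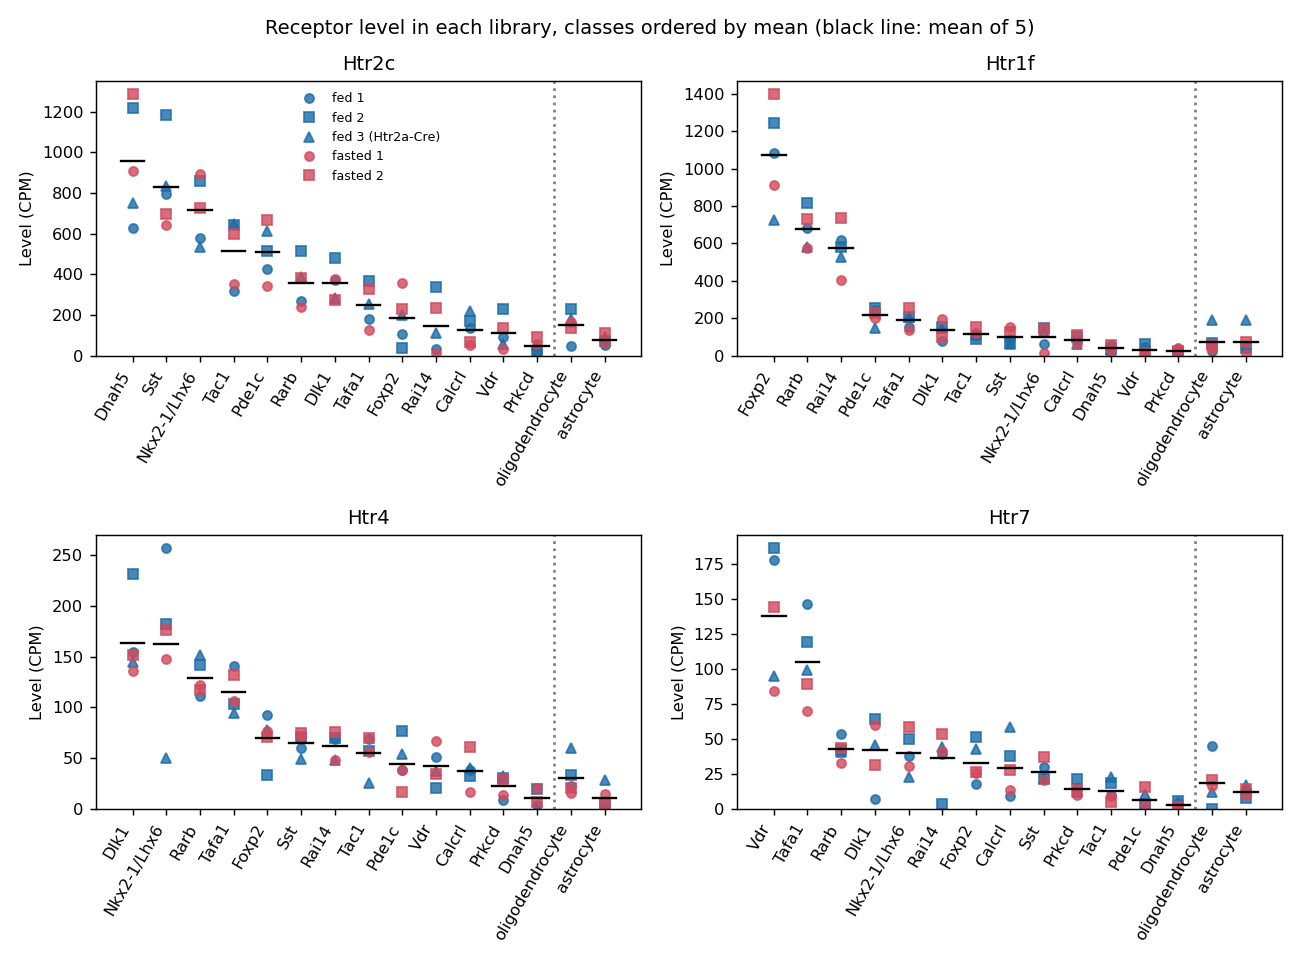
Levels (CPM, linear axes) of Htr2c, Htr1f, Htr4 and Htr7 in each of the 5 libraries, with classes ordered by mean (black lines) and 2 glial classes right of the dotted line; blue points are fed, red points fasted, and the triangle is the Htr2a-Cre library. The 3 classes highest in Htr1f stay above Pde1c in every library, while Htr2c falls off gradually from Dnah5 (959 CPM) to Prkcd (47.5 CPM) with overlapping neighbours.

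The same calls can be read by class. In Prkcd, 1 of 8 tested receptors passed as higher and 6 as lower, where 31.8% of all genes passed. Calcrl had 0 higher and 4 lower of 8 (11.1% of all genes), Dnah5 had 1 and 3 of 8 (21.5%) and Sst 1 and 3 of 9 (13.2%). In the CeM, Tafa1 had 3 higher and 2 lower of 9 (19.9% of all genes), Tac1 2 and 3 of 9 (8.83%), Rai14 2 and 2 of 9 (8.51%), Vdr 1 and 3 of 8 (8.14%) and Dlk1 1 and 1 of 9 (7.74%). Outside the CeA, Pde1c had 3 higher and 3 lower of 8 (14.6% of all genes), Rarb 4 and 0 of 9 (22.8%), Foxp2 1 and 2 of 9 (17%) and Nkx2-1/Lhx6 4 and 2 of 8 (19.9%). Lower calls outnumbered higher ones in Prkcd, Calcrl, Dnah5, Sst, Tac1, Vdr and Foxp2, and over all genes lower calls were also the more common. Rarb had higher calls only. The share called depends on the nuclei and UMIs of a class, so it is not compared between classes.

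Counted per nucleus at 4000 UMIs, at least 1 of the 9 receptors was seen in 78.5% of inhibitory nuclei and at least 2 in 41.8%. Prkcd was lowest, with any receptor in 35.2% (30.1 to 40.5%) and a mean of 0.433 receptors per nucleus. Calcrl followed with 44.4%. Sst reached 94.0%, Foxp2 92.9%, Rarb 92.5%, Rai14 90.5% and Nkx2-1/Lhx6 nuclei 90.2%. In Rarb, 67.6% (63.8 to 71.3%) had at least 2 receptors, with a mean of 1.98. Oligodendrocytes had any receptor in 54.3% and astrocytes in 40.6%, so the shares in Prkcd and Calcrl were below that of oligodendrocytes. Htr2c and Htr1f were seen together in 45.1% of Rarb nuclei, where the product of their single shares was 44.4%, and in 15.7% of Sst nuclei, where it was 18.4%. Within these classes the pair met about as often as the single shares gave. In Prkcd the same pair was seen in 2.33% (1.01 to 4.53%) against a product of 0.980%. Htr2c and Htr4 met in 8.48% (5.18 to 12.9%) of Foxp2 nuclei against 3.77%. Most other pairs and classes looked at had an interval that held the product.

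Across the means of the fed libraries in 13 classes, Htr1d and Htr2c had the highest Pearson correlation of log2 levels (0.712). Htr1f and Htr4 followed with 0.555, and Htr4 and Htr7 with 0.488. Htr2a and Htr5a had the lowest (−0.477). The correlation between Htr2c and Htr1f was 0.0873, and between Htr2c and Htr2a, both Gq-coupled, 0.0647. These values describe 13 classes from the same libraries, of unequal depth. The fed means include the Htr2a-Cre library, whose Htr2a levels by class had a correlation of 0.193 with those of the other libraries. The correlations of Htr2a depend on that library to an extent that was not tested.

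Among 8270 genes with enough UMIs, the levels most like those of Htr2c over the 13 classes were of Frmd5 (r = 0.871), Fmn2 (0.841) and Pak6 (0.836). For Htr1f they were Msra (0.867), Adgrb1 (0.859) and Gucy1a1 (0.854), and for Htr4 Kcnk2 (0.886), C2cd5 (0.866) and Marchf11 (0.861). For Htr7 they were Pla2g4e (0.942), Hdac1 (0.889) and Elfn2 (0.869), and for Htr2a Lpcat3 (0.825), Megf9 (0.775) and Ptpn13 (0.773). Htr1b was most like Ascc3 (0.879), Agap1 (0.863) and Nup35 (0.822), and Htr1d most like Zfp385a (0.894), Strbp (0.890) and Arhgef10l (0.866). Htr5a was most like Dusp11 (0.873) and Htr1a most like Plscr4 (0.808). These are the highest of all correlations searched, over 13 points each. They also use the means of the fed libraries, so the genes listed for Htr2a depend in part on the Htr2a-Cre library.

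In the Htr2a-Cre library, Htr2a was found in classes where the other 4 libraries had little or none. In Dnah5 it had 24 UMIs in 14 of 44 nuclei, or 38.8 CPM (exact 95% Poisson interval 24.9 to 57.7, counting error only). The other 4 libraries had 0 UMIs in 113 Dnah5 nuclei. Their 0 UMIs allow up to 2.50 CPM (exact 95% Poisson limit). The level of the Htr2a-Cre library was 19.1-fold the floor of 3 counts over these libraries, 2.03 CPM, with no interval on this fold. In Rai14 it had 20.1 CPM (6.52 to 46.9) from 5 UMIs in 3 of 16 nuclei. The other libraries had 0 UMIs in 69 Rai14 nuclei, which allows up to 3.59 CPM. The level was 6.88-fold the floor there, 2.92 CPM.

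Sst, Tafa1, Vdr and Pde1c showed the same direction. Sst had 30.7 CPM (17.2 to 50.7) in the Htr2a-Cre library and 5.69 (3.19 to 9.39) in the summed others. Tafa1 had 20.1 CPM (13.2 to 29.2) against 4.79 (2.79 to 7.66). Vdr had 50.7 CPM (21.9 to 99.9) against 3.07 (0.372 to 11.1), and Pde1c 49.9 (31.6 to 74.9) against 17.5 (11.4 to 25.6). The intervals were apart in 6 of 13 classes. They overlapped in the other classes, among them Prkcd with 21.1 against 22.8 CPM, Foxp2 with 16.9 against 19.9 CPM and Nkx2-1/Lhx6 with 54.2 against 35.2 CPM. A single library carries this genotype, so the difference has no test. The glia had 5.30 CPM in this library and 2.46 CPM in the others.

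**Figure D3:**
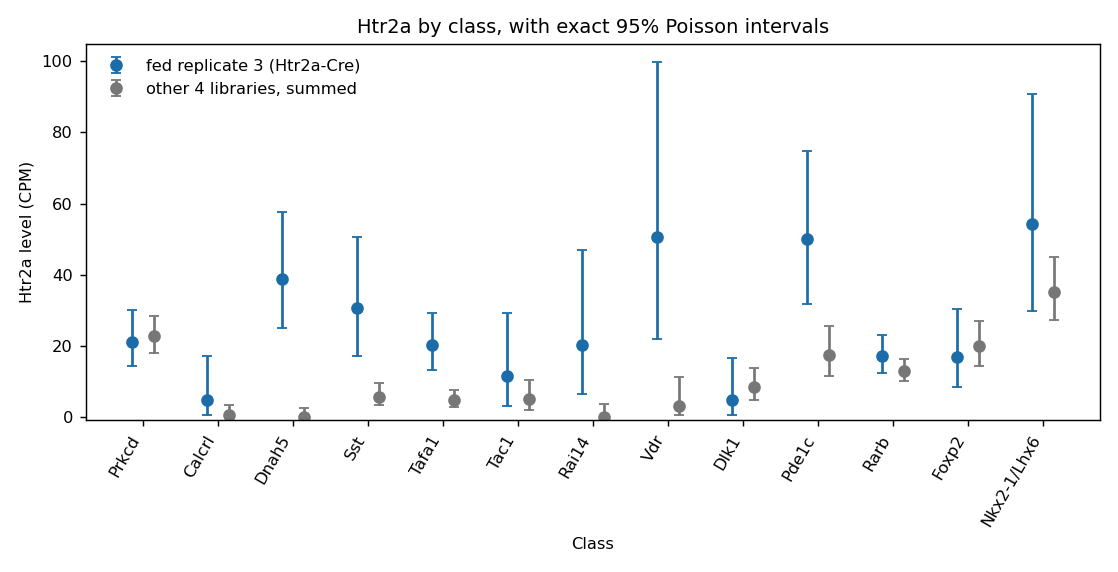
Htr2a level (CPM) by class in the Htr2a-Cre library and in the other 4 libraries summed; points are levels and bars exact 95% Poisson intervals, which cover counting error only. The intervals are apart in Dnah5, Sst, Tafa1, Rai14, Vdr and Pde1c, while Prkcd (21.1 and 22.8 CPM) and Foxp2 (16.9 and 19.9 CPM) lie together.

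The Cre reporter mCherry was asked for the same classes. The Htr2a-Cre library held 3152 mCherry UMIs and 5 of Cre in 1438 nuclei, and the other 4 libraries held 0 of each. At full depth, 408 of its 1221 inhibitory nuclei had an mCherry UMI (33.4%, 30.8 to 36.1%), and 6 of 106 glial nuclei did (5.66%, 2.11 to 11.9%). These nuclei differed in depth, with a median of 14487 UMIs in inhibitory and 4482 in glial nuclei. In thinned nuclei the shares were 21.3% and 5.80%. By class the share ran from 22.9% in Foxp2 to 75.0% in Vdr, the latter 9 of 12 nuclei. Sst had 47.1%, Tafa1 43.7%, Dlk1 42.9%, Dnah5 29.5% and Prkcd 26.6%.

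Htr2a itself was at nearly the same level in inhibitory nuclei with and without mCherry. It was at 19.1 CPM (16.0 to 22.6) with and 18.8 CPM (16.5 to 21.4) without, a ratio of 1.01 (0.814 to 1.26). At 10 or more mCherry UMIs against all nuclei with fewer, a threshold chosen after seeing the data, the ratio was 1.33 (0.937 to 1.83). mCherry depends on the injected virus, so nuclei without its UMI can include nuclei with Cre, and their share was not tested. The ratio is therefore no measure of how well Cre follows Htr2a. In Dnah5, 16 of the 24 Htr2a UMIs were in the 31 nuclei without mCherry. Sst, with a ratio of 4.48 (1.21 to 24.7), was the only class of the 10 with Htr2a UMIs on both sides whose interval left out 1. In Sst, however, 1 nucleus held 6 of the 15 Htr2a UMIs. By nuclei at full depth, 6 of 16 with mCherry had an Htr2a UMI (15.2 to 64.6%) and 2 of 18 without (1.38 to 34.7%), which overlap. Foxp2, Calcrl and Dlk1 had no Htr2a UMI in mCherry nuclei. In Foxp2 this was 0 UMIs in 11 nuclei with mCherry against 11 UMIs in 37 without (22.9 CPM, 11.4 to 40.96). A single nucleus held 6 of those 11 UMIs. The shares of nuclei with an Htr2a UMI were 0% (0 to 28.5%) and 16.2% (6.19 to 32.0%), which overlap. Of the other receptors, Htr1f was lower in mCherry nuclei, with a ratio of 0.731 (0.687 to 0.777). Htr2c was at 1.02 (0.975 to 1.07), Htr4 at 1.10 (0.992 to 1.22) and Htr1b at 1.28 (0.964 to 1.70). With 2 or more mCherry UMIs set against all nuclei with fewer, Htr4 was at 1.20 (1.07 to 1.34) and Htr2c at 1.17 (1.11 to 1.23). In thinned nuclei Htr4 was at 0.930 (0.715 to 1.20) and Htr2c at 0.857 (0.759 to 0.965). Htr1f stayed between 0.634 and 0.731 in the settings tried. The ratio pools all classes. Foxp2 and Rarb, highest in Htr1f, had mCherry in 22.9% and 27.5% of nuclei at full depth, against 33.4% of all inhibitory nuclei. Whether the make-up of classes accounts for the Htr1f ratio was not tested. The intervals count UMIs as independent, although those of 1 nucleus are not. Over the 13 classes, the mCherry level and the Htr2a level of the same library had a correlation of 0.146, and Htr2a in this library and in the others one of 0.193.

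**Figure D4:**
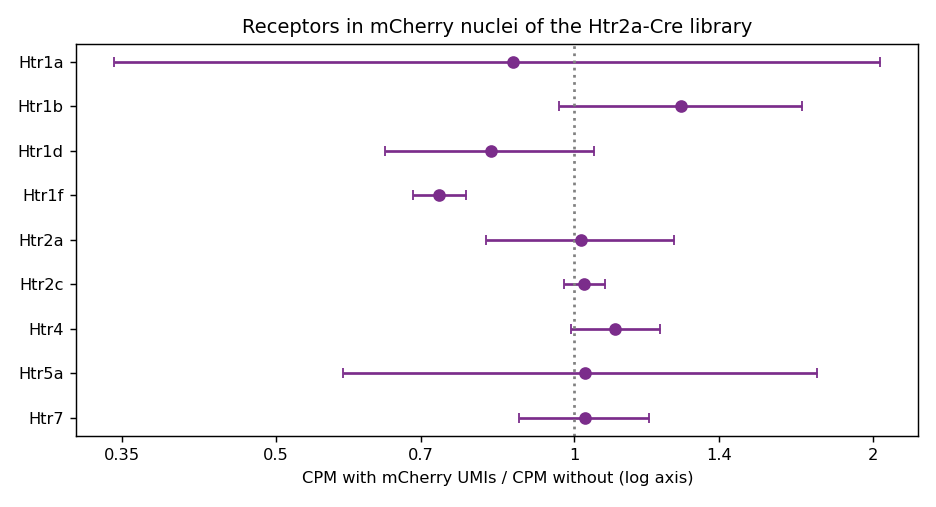
Ratio of each receptor's CPM in inhibitory nuclei with an mCherry UMI to that in nuclei without, in the Htr2a-Cre library (log axis); points are ratios and bars exact 95% intervals for counting error only. Htr2a lies at 1.01 and Htr2c at 1.02, and Htr1f at 0.731 is the one whose interval ends well below 1.

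To ask whether fasting changed the receptors, the 2 fasted libraries were compared with the 3 fed libraries in all inhibitory nuclei, in 11 classes and in glia. Vdr and Dlk1 were left out, with fewer than 10 nuclei in a library. Of 117 pairs, 63 could be tested and 0 passed in edgeR's quasi-likelihood test. The lowest adjusted p was 0.196, and over all genes 0.0808% passed. DESeq2 also called 0, and the likelihood ratio test, the test used in the study, called 1, where 0.554% of all genes passed. With no filter on low counts 4 were called, where 0.411% of all genes passed. The replicate numbers are taken to mark shared preparations, and with them as a block 4 were called, where 1.03% passed. Fed replicate 3 has no fasted partner, so with the block the fasting effect rests on replicates 1 and 2 alone. Few libraries are then left to measure the spread behind those adjusted p-values.

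Htr2c accounted for 3 of the 4 calls with the block. In Prkcd the fed libraries had 16.7, 22.5 and 52.6 CPM and the fasted ones 56.8 and 88.9, with no overlap (1.16, adjusted p = 0.196; with the replicate block 1.86, adjusted p = 8.99e-07, where 1.18% of all genes passed). In Foxp2 they had 107, 38.9 and 199.7 against 357 and 228 CPM, again without overlap (1.23, adjusted p = 0.521; with the block 2.12, adjusted p = 8.95e-14, where 0.889% of all genes passed). In Sst they had 796, 1186 and 836 against 644 and 697 CPM, lower in both fasted libraries (−0.53, adjusted p = 0.771; with the block −0.61, adjusted p = 0.0155, where 1.06% of all genes passed). In Calcrl they had 133, 168 and 217 against 50.2 and 67.2 CPM, also without overlap (−1.52, adjusted p = 0.41). The likelihood ratio test called Calcrl (adjusted p = 0.00914). The share of all genes without overlap is not given here, so these separations alone are no result about Htr2c.

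Htr1f in Prkcd was the fourth call with the block (1.51, adjusted p = 0.0274), while its fed and fasted ranges overlapped and the value without the block was 0.61 (adjusted p = 0.848). Htr1f in Sst had 0.90 (adjusted p = 0.222). Without the filter on low counts, Htr2c was called in Prkcd, Calcrl and Foxp2. The remaining call without the filter, Htr2a in Dnah5 (adjusted p = 0.00498), rested on the Htr2a-Cre library, the only one with a UMI.

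Whether the response differed between classes was tested as the interaction of class and feeding state against the other inhibitory nuclei. Of 111 pairs, 4 passed, where 0.134% of all genes did. Htr2c rose with fasting relative to the other nuclei in Prkcd by 1.31 ± 0.27 (adjusted p = 0.049989, where 0.0738% of all genes passed) and in Foxp2 by 1.398 ± 0.21 (adjusted p = 8.23e-07, where 0.0486% passed). It fell in Calcrl by 1.44 ± 0.26 (adjusted p = 0.00636, where 0.0659% passed). Htr2a in Dnah5 also passed (adjusted p = 0.0178, where 0.535% passed), from UMIs of the Htr2a-Cre library alone. DESeq2 called none of the 111. For Htr2c it gave an adjusted p of 0.595 in Prkcd, 0.251 in Calcrl and 0.999987 in Foxp2.

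Each of these calls was lost without at least 1 library. Htr2c in Prkcd was lost without fed replicate 2 (adjusted p = 0.197), fasted replicate 1 (0.0668) or fasted replicate 2 (0.845). Htr2c in Foxp2 was lost without fed replicate 2 (0.68, adjusted p = 0.641), Htr2c in Calcrl without fed replicate 3 (0.0576), and Htr2a in Dnah5 without fed replicate 3 (adjusted p = 1), fasted replicate 1 (0.152) or fasted replicate 2 (0.888).

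Few nuclei carried much of the Htr2c in the low classes. In Prkcd of fasted replicate 2, 1 nucleus had 59 of 115 Htr2c UMIs, and in fasted replicate 1, 1 nucleus had 11 of 33. In Calcrl, 1 nucleus had 47 of 92 UMIs in fed replicate 3 and 1 had 35 of 62 in fed replicate 2. Without the 3 nuclei richest in Htr2c in each library, a choice made after seeing the data, Prkcd was at 6.32, 14.6 and 43.4 CPM in fed and 20.0 and 32.1 CPM in fasted libraries. Calcrl was then at 74.7, 3.22 and 38.0 against 18.3 and 34.2 CPM, and Foxp2 at 43.1, 10.5 and 129 against 83.7 and 134 CPM. Fed and fasted libraries overlapped in each of these 3 classes. Within the pairs of one replicate number, Prkcd and Foxp2 were still higher in the fasted library of both, and Calcrl was lower in one pair and higher in the other. In Sst, with 632, 1018 and 706 against 538 and 635 CPM, the overlap was limited to fasted replicate 2 and fed replicate 1.

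**Figure D5:**
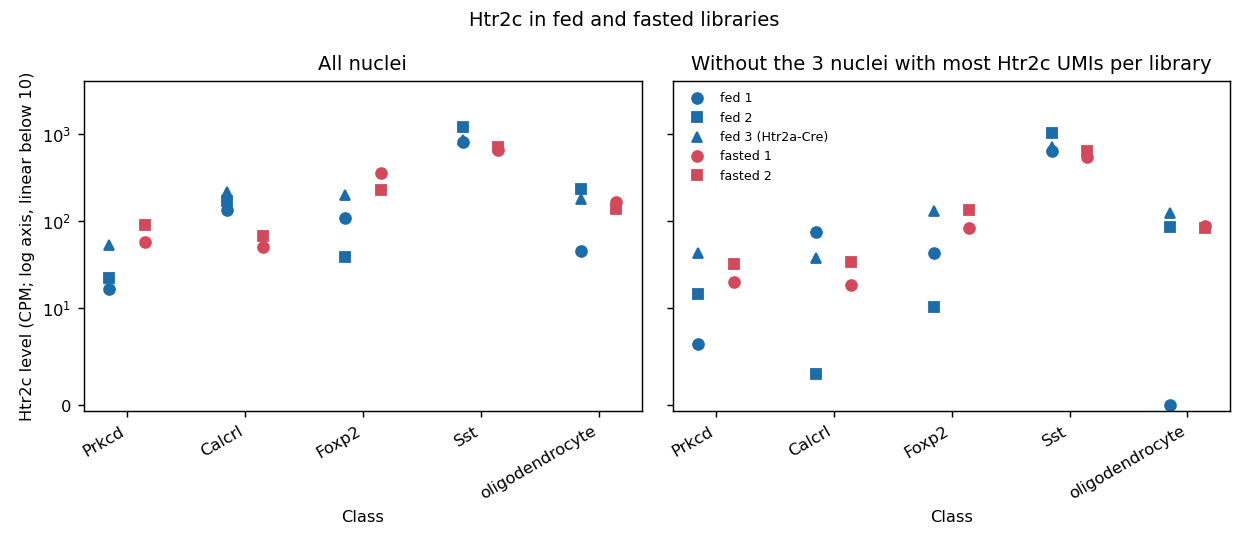
Htr2c level (CPM, log axis, linear below 10) in each fed (blue) and fasted (red) library by class, for all nuclei (left) and without the 3 nuclei with the most Htr2c UMIs per library (right). Fed and fasted points of Prkcd, Foxp2 and Calcrl are apart on the left and overlap on the right.

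The 41 other genes of serotonin signalling were set beside the receptors. Of 422 pairs of such a gene and a class, 63 passed as higher and 105 as lower, or 14.9% and 24.9%, against 6.7% and 9.07% over all genes. The genes that serotonin neurons need for the first step of synthesis and for reuptake were nearly absent, with 9 UMIs of Tph2, 6 of Tph1 and 15 of the transporter Slc6a4 in all inhibitory nuclei. Of the other receptors, the channel Htr3a had 21 UMIs, Htr2b 45 and the Gs-coupled Htr6 263. Tph1, Tph2, Slc6a4, Htr2b, Htr3b, Htr5b and Plcb3 were too low for any test.

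Genes that act behind the receptors also marked classes. Kcnj6, a subunit of the potassium channel opened by Gi/o-coupled receptors, was low in Prkcd (17.2 ± 3.88 CPM, −3.00, adjusted p = 1.2e-17) and Dnah5 (25.9 ± 17.3 CPM, −2.53, adjusted p = 3.43e-18). It was high in Foxp2 (365 ± 21.7 CPM, 1.73, adjusted p = 2.99e-22) and in Tafa1 (270 ± 51.8 CPM, 1.17, adjusted p = 1.87e-11). Its order did not follow that of Htr1f, which was highest in Foxp2 and Rarb and passed as lower in Tafa1, while Kcnj6 was at 72.3 CPM in Rarb. Itpr1, the calcium channel of internal stores that opens behind Gq-coupled receptors, was low in Prkcd (61.6 ± 31.2 CPM, −2.30, adjusted p = 7.87e-15) and high in Rarb (443 ± 66.1 CPM, 1.04). In Dnah5 and Sst, the classes highest in Htr2c, Itpr1 was at 281 and 261 CPM, close to the 265 CPM of all inhibitory nuclei. Gnas, the Gs protein, was high in Sst (1109 ± 130 CPM, 1.21) and low in Calcrl (202 ± 67.3 CPM, −1.45). Its relative Gnal was low in Dlk1 (−1.46) and Dnah5 (−1.26). Gna14, a Gq-type protein, was highest in Nkx2-1/Lhx6 nuclei, at 98.8 ± 69.3 CPM against 4.28 ± 1.48 CPM in all inhibitory nuclei (5.45, adjusted p = 5.57e-17). The next class, Vdr, had a mean of 5.84 CPM. Nkx2-1/Lhx6 nuclei held 179 of the 369 Gna14 UMIs of inhibitory nuclei.

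Some genes of monoamine handling varied as well. Ddc, the decarboxylase of the serotonin and dopamine pathways, was at 203 ± 40.1 CPM in Prkcd (2.104, adjusted p = 1.01e-17) and at 8.59 ± 8.52 CPM in Nkx2-1/Lhx6 nuclei (−3.15, adjusted p = 1.47e-09). Slc18a2, the vesicular monoamine transporter, was high in Dnah5 (47.0 ± 18.8 CPM, 2.73, adjusted p = 2.59e-16) and Tac1 (47.4 ± 21.5 CPM, 2.54, adjusted p = 1.3e-15). Maob, which breaks monoamines down, was high in Sst (14.7 ± 5.52 CPM, 1.87, adjusted p = 1.24e-05). With fasting, 1 of 322 pairs passed (0.311%, against 0.0808% of all genes), Itpr1 in Prkcd (1.21, adjusted p = 0.0454). It was lost without each of the 5 libraries in turn, at adjusted p of 0.0701, 0.129, 0.119, 0.157 and 0.0853 in the order above, and with DESeq2 (0.172). In the interaction test 2 of 422 pairs passed (0.474%, against 0.134% of all genes). Itpr1 in Prkcd (1.08, adjusted p = 0.035) and Kcnj6 in Sst (0.95, adjusted p = 0.0243) were these, and DESeq2 called neither (0.454 and 0.917). Itpr1 was lost without fed replicate 2 (0.113) or fasted replicate 2 (0.491), and Kcnj6 without fed replicate 1 (0.0544), fed replicate 2 (0.0668), fasted replicate 1 (0.324) or fasted replicate 2 (0.298).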

How the data were processed

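The authors deposited raw UMI counts per gene and barcode for each of 5 droplet libraries, with Cre and mCherry among the features. The study's methods name GRCm39 and the counting of intronic reads, while the submitters' processing notes name Cell Ranger 2.1.1 and mm10. Which of these made the deposited counts was not established, so the counting of introns rests on the methods alone. Receptor positions are those of GENCODE M39 on GRCm39, in which 22383 of 22532 feature IDs were found (99.3%). Promoters were read from RefSeq on GRCm38.p6 by symbol. All 9 receptors were found, and the Htr4 promoter is not printed here.

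Nuclei with 500 to 8000 genes and under 0.8% mitochondrial UMIs were kept, 7161 of 23839 barcodes. Scrublet (scanpy 1.11.5) called 70 doublets, 0.176 to 2.21% per library, which were kept. In 3 of 10 library pairs 1 barcode was shared. A nucleus was inhibitory with at least 1 Gad1 or Gad2 UMI, no glial gate and fewer than 2 Slc17a7 UMIs. The gates were Prkcd 3, Calcrl 2, Dnah5 3 with Vipr2 1, Sst 2, Tafa1 5 with Cacna1g 1, Tac1 1, Rai14 2, Vdr 1, Dlk1 2, Pde1c 12, Rarb 5, Foxp2 5, and Nkx2-1 1 or Lhx6 2 UMIs. Sst nuclei passing the Dnah5, Tac1 or Nkx2-1/Lhx6 gate, Rai14 nuclei passing Foxp2 and Rarb nuclei passing Pde1c took the other class. The thresholds were set after the UMI distributions of the marker genes were seen. Glia took 3 or, for astrocytes, 5 summed marker UMIs with at most 1 Gad UMI. A nucleus left with several gates after these rules of precedence stayed out of every class. It entered the comparison group only of classes whose gates were not among them. Thinning to 4000 UMIs left 6282 nuclei, and 879 were too shallow.

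Counts were summed per class and library and tested over all genes with edgeR 4.0.16 (quasi-likelihood test, TMM, filterByExpr, Benjamini-Hochberg at 0.05) in R 4.3.3. Class and interaction fits had the library as a block, and the fasting fit had none, since the study names none. Alternatives were DESeq2 1.42.0, the likelihood ratio test, no low-count filter, the other choice of block, a stricter gate by 1 UMI, thinning, nuclei with 1500 or more genes, doublets removed and each library left out. Libraries of one replicate number are taken to share a preparation, as the study describes for its fed and fasted pairs. Deviations from the group means over 6434 genes correlated at 0.544 for replicates 1 and 0.774 for replicates 2. With 2 fasted libraries the crossed pairs mirror these values. Fed replicate 3, taken to share no preparation with a fasted library, correlated at 0.460 with fasted replicate 1. The pairing therefore rests on matching replicate numbers to the study's account. The scripts were tested on simulated data. Exact intervals at 95% and the floor of 3 counts cover counting error only.

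All 9 receptors are named in each comparison, with up to 5 genes per comparison from a list of 41 serotonin pathway genes by largest called change, and the 3 genes most correlated with a receptor over classes among those at 20 CPM or more in a class. Receptors, lists and classes were chosen with earlier results of these data known.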

Additional observations from a re-analysis of the deposited data

Results flagged for a closer look

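The effect of fasting on Htr2c differed between the Prkcd class and the other inhibitory nuclei by 1.31 on the log2 scale, higher in both fasted libraries than in the 3 fed ones (edgeR interaction test, adjusted p = 0.049989). It differed in Foxp2 by 1.398, likewise higher in both fasted libraries (adjusted p = 8.23e-07), and in Calcrl by −1.44, lower in both fasted libraries (adjusted p = 0.00636). Each of these calls was lost without at least 1 library and with DESeq2, and 1 nucleus held 59 of the 115 Htr2c UMIs of Prkcd in fasted replicate 2. For Htr2a the effect of feeding state differed in Dnah5 (adjusted p = 0.0178), where the 24 UMIs came from fed replicate 3 and the other 4 libraries had 0.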

How the results depend on the processing

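The count of 58 class calls ranged from 44 with thinned nuclei to 61 without the low-count filter, was 49 with DESeq2, 45 without the library as a block and 52 to 58 with each library left out, and no call was reversed. Of the 58, 46 held with every library left out, and 21 were lost in at least 1 setting. With fasting the count of receptors went from 0 to 4 without the low-count filter, 4 with the replicate block and 1 with the likelihood ratio test. In the interaction it went from 4 to 0 with DESeq2 and to between 2 and 5 with each library left out. The ratio of Htr2a in mCherry nuclei was 1.33 (0.937 to 1.83) at 10 or more mCherry UMIs against fewer, a threshold chosen after seeing the data. It was 1.01 to 1.08 at the other settings. Over all genes the fasting test moved more. In all inhibitory nuclei 1 gene was called, against 91 higher and 4 lower with DESeq2, 121 and 4 without the filter, and 344 and 128 with the block. The cause was not tested. Htr1a and Htr5a had 120 and 257 UMIs in all inhibitory nuclei, which limits what could be detected for them, and Vdr had 60 nuclei. The 2 fasted libraries and the single Htr2a-Cre library limit every statement on feeding and genotype.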

Other observations

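In Dnah5 nuclei, 478 genes had a UMI in the Htr2a-Cre library and none in the other 4. By UMIs mCherry led with 50, followed by Htr2a with 24 and Adamts19 with 17, genes named after their values were seen. With Htr2a UMIs compared between mCherry nuclei at other thresholds, the ratio was 1.08 at 2 or more mCherry UMIs against fewer.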
